A study of Mus musculus with 6 samples.

Results

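Major histocompatibility complex (MHC) class II presentation is represented here by Cd74, H2-Aa, H2-Ab1, H2-Eb1, H2-DMa, H2-Oa, H2-Ob, Ciita and Ctss, 9 of the 19938 genes with an array feature of their own. The genes were selected by name, and each has 1 feature in the platform's probe-to-gene table, so all 9 were measured and no choice between features was needed. Their levels were read in 6 arrays of bone marrow multipotent progenitors, which are blood-forming cells that give rise to many lineages and are here lineage-negative, Sca1+, c-Kit+ and CD34+, with Flt2, as the receptor is spelled in the series text, as a further marker. The 3 wild-type (WT) arrays came from C57BL/6 mice with intact latexin (Lxn), and the 3 arrays labelled Lxn-/- came from C57BL/6 mice whose latexin gene lacks exons 2 to 4 and which make no latexin protein. All donors are labelled as females aged 8 to 12 weeks. Each array held RNA of nearly 100000 cells, which the series text at that point calls long-term stem cells, pooled from 10 to 20 mice, so the spread between arrays is a spread between pools and says nothing of single mice. The comparison asks which transcripts differ when latexin, an inhibitor of carboxypeptidases, is missing. Values are log2 expression values, and differences are Lxn-/- minus WT.

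MHC class II molecules are pairs of an alpha and a beta chain that carry peptides from engulfed or endosomal protein to the cell surface, where CD4+ T cells read them. New pairs bind the invariant chain Cd74, which is cut down in endosomes by proteases that include cathepsin S (Ctss) until a short fragment is left in the groove. The class II-like pair H2-DM removes that fragment and edits the bound peptides, and the related pair H2-O restrains H2-DM. Ciita is the coactivator that switches these genes on. It binds no DNA itself and acts through factors seated on the X and Y boxes of their promoters. Dendritic cells, B cells and macrophages are the main class II-bearing cells of mouse bone marrow. C57BL/6 mice make no functional E alpha chain, and the gene table lists their H2-Ea as a transcribed pseudogene, so the beta chain encoded by H2-Eb1 lacks its usual partner in all 6 samples.

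The promoters of 4 members are printed because they show the X and Y box layout through which Ciita acts. They are the 150 bases before the annotated start, read 5′ to 3′ on the gene's strand from RefSeq, build GRCm38.p6. Capitals mark GCAAC, a core of the X box, and GATTGG, which holds the Y box.
H2-Aa, chr17:34287824-34287973, minus strand: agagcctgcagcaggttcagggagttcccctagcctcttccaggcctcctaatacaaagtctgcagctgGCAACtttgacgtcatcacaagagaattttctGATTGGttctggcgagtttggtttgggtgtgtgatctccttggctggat
H2-Eb1, chr17:34305717-34305866, plus strand: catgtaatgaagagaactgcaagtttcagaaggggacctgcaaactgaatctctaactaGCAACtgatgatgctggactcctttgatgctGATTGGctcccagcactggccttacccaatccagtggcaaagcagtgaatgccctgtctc
H2-Oa, chr17:34092229-34092378, plus strand: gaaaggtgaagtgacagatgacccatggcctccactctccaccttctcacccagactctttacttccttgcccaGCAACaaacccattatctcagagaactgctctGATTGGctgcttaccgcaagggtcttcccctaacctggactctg
H2-Ob, chr17:34238755-34238904, plus strand: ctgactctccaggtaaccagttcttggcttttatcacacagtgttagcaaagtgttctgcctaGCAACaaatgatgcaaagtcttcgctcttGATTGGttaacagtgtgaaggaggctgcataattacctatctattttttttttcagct
The motifs lie 27, 26, 27 and 24 bases apart in H2-Aa, H2-Eb1, H2-Oa and H2-Ob. The Y box end lies 43, 54, 38 and 52 bases before the start in the same order. GCAAC followed by GATTGG after 15 to 40 bases, searched on both strands, was found in 97 of 32851 promoter stretches of this length, which is 0.295%. GCAAC alone was found in 19.6% and GATTGG alone in 10.9%. The letters and the spacing were chosen after these 4 sequences were read, so their presence here is a description. The matching stretches of Ctss, which encodes a protease, and those before both listed starts of H2-DMa do not hold the pair. Only these exact letters were searched, so X and Y boxes of other spelling would be missed. In all, 6 of the 9 members have a promoter described here. Cd74 was left out of that count, and the search over all stretches found the pair in none listed for Cd74. H2-Ab1 and Ciita were not matched to a promoter, so whether theirs hold the pair is not given.

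Before the members are compared, some facts about the arrays bear on every value. Xist, the RNA of the inactive X chromosome, was 13.13 to 13.23 in WT and 13.17 in Lxn-/- array 2, but 6.86 and 5.85 in Lxn-/- arrays 1 and 3, and the Y-linked Eif2s3y was 8.57 and 9.36 in those 2 arrays and at most 3.97 in the other 4, against the label of female donors. Lxn itself was 8.56 to 8.70 in WT and 8.03, 8.53 and 8.61 in Lxn-/- arrays 1, 2 and 3. Which exons its feature covers was not known here, so it checks no label, and the groups are called by their labels. Across the tested features, which are not independent replicates, Lxn-/- array 2 correlated at 0.9919 to 0.9947 with the WT arrays and at 0.9849 and 0.9902 with Lxn-/- arrays 1 and 3, which correlated at 0.9921 with each other and at 0.9832 to 0.9877 with WT. Of the sort markers, Flt3 was 12.45 to 12.83 and Cd34 13.33 to 13.48 over all arrays, whereas Kit was 11.48 in Lxn-/- array 1 and 12.05 to 12.19 in the others.

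For the classical class II chains and the invariant chain, the groups overlapped and the genotypes differed by less than the pools of 1 genotype did. H2-Aa, the alpha chain of the A molecule, was 8.93, 9.33 and 9.28 in WT arrays 1, 2 and 3 and 9.33, 9.27 and 9.08 in Lxn-/- arrays 1, 2 and 3. The Lxn-/- values lay inside the WT range apart from array 1, which was at its upper edge. The difference was 0.05 (SE 0.13, adjusted p = 0.854, limma), and its 95% interval ran from -0.24 to 0.33. H2-Ab1, the beta chain that pairs with it, was 9.92, 10.12 and 10.45 in WT and 10.23, 10.40 and 9.99 in Lxn-/- arrays. All Lxn-/- values lay inside the WT range, and the difference of 0.05 (SE 0.15, adjusted p = 0.878) was small beside that range, which was 0.53. H2-Eb1, the beta chain of the E molecule, was 8.60, 8.96 and 8.92 in WT and 8.93, 8.80 and 8.59 in Lxn-/- arrays. It differed by -0.05 (SE 0.13, adjusted p = 0.855), with array 1 the lowest of WT and array 3 the lowest of Lxn-/-. Cd74 was 9.70, 9.95 and 9.81 in WT and 9.89, 9.87 and 9.84 in Lxn-/- arrays. Its Lxn-/- values were the tightest of any member, with an SD of 0.03 against 0.12 in WT (n = 3 each), and its difference of 0.04 had a 95% interval of -0.17 to 0.25.

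**Figure D1:**
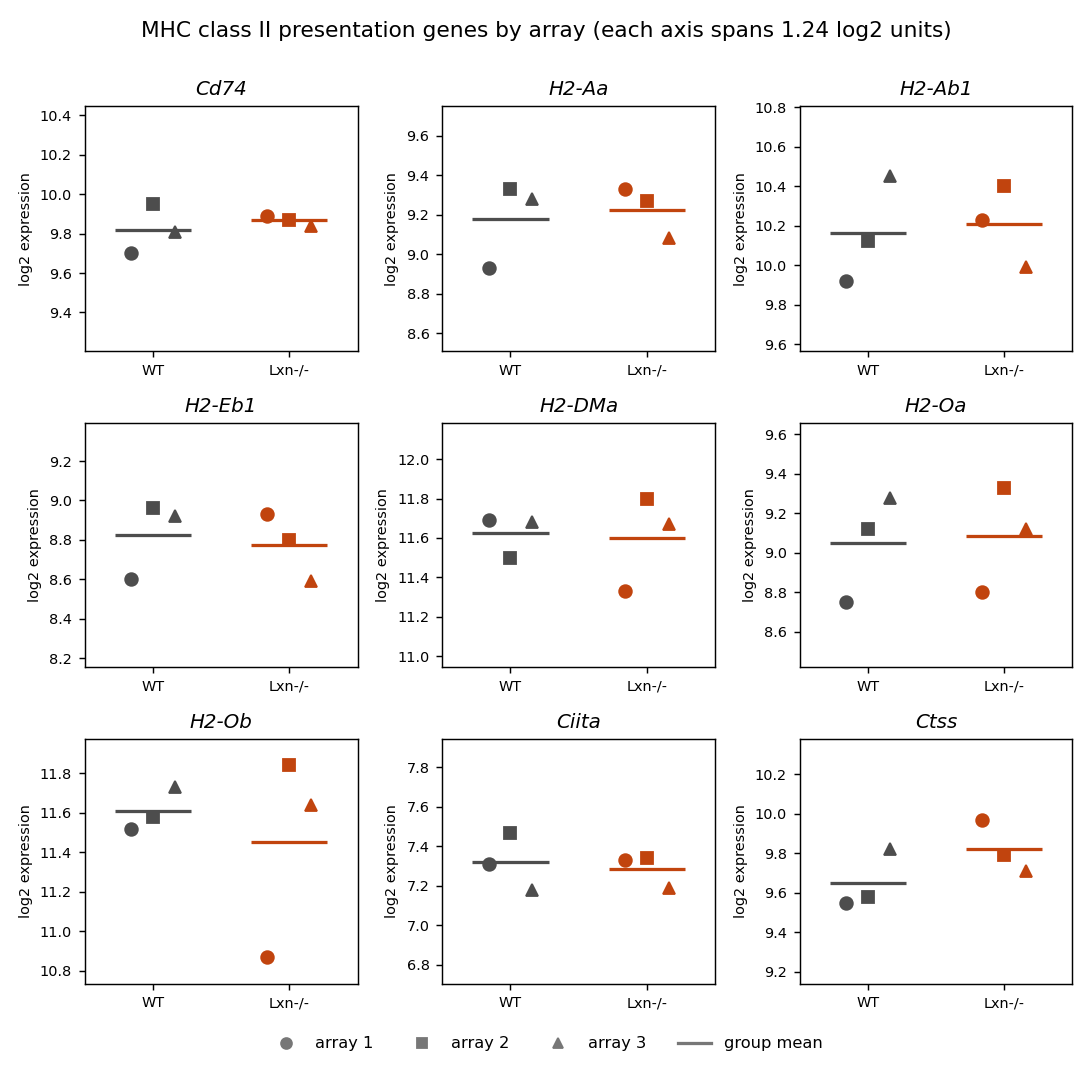
Log2 expression of the 9 class II genes in each WT array (grey) and each array labelled Lxn-/- (orange); bars are group means of 3 arrays and marker shapes give the array number. The groups overlap in every panel, and H2-Ob in Lxn-/- array 1 (10.87) is the point farthest from its group.

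The peptide-editing genes also differed more between pools than between genotypes, and Lxn-/- array 1 was the lowest array for H2-DMa and H2-Ob. That array was lowest for 2 of the 9 members and for 17.9% of all features, so this count is near the share at large. WT array 1 was lowest for 5 members, against 9.61% of features. H2-DMa, the alpha chain of the editor H2-DM, was 11.69, 11.50 and 11.68 in WT and 11.33, 11.80 and 11.67 in Lxn-/- arrays 1, 2 and 3. Array 1 lay below all WT values and array 2 above them, for a difference of -0.02 (SE 0.13, adjusted p = 0.941). H2-Ob, the beta chain of the antagonist H2-O, was 11.52, 11.58 and 11.73 in WT and 10.87, 11.84 and 11.64 in Lxn-/- arrays. Lxn-/- array 1 deviated from the WT mean by -0.74 and array 2 by 0.23, a range of 0.98 against 0.21 in WT. The groups overlapped, and the difference of -0.16 (SE 0.22, adjusted p = 0.706) became 0.13 without Lxn-/- array 1. H2-Ob was thus the single member whose 95% interval, -0.65 to 0.33, reached past a 1.5-fold change. H2-Oa, the alpha chain of the same pair, was 8.75, 9.12 and 9.28 in WT and 8.80, 9.33 and 9.12 in Lxn-/- arrays. It was low in array 1 of either genotype, and the difference was 0.03 (SE 0.17, adjusted p = 0.934). Within each array, H2-DMa minus H2-Ob stood 0.46 above the WT mean of that difference in Lxn-/- array 1. It was -0.05 and 0.01 from that mean in Lxn-/- arrays 2 and 3, and 0.15, -0.09 and -0.06 in the WT arrays. The sort markers Kit, Flt3 and Cd34 were also lowest in Lxn-/- array 1, and their part in these values was not tested.

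The regulator and the protease showed no shift that passed the test either. Ciita was 7.31, 7.47 and 7.18 in WT and 7.33, 7.34 and 7.19 in Lxn-/- arrays. All Lxn-/- values lay inside the WT range, for a difference of -0.03 (SE 0.10, adjusted p = 0.885) and a 95% interval of -0.26 to 0.20. No detection call is part of the values used here, so whether Ciita was above background was not tested. Ctss was 9.55, 9.58 and 9.82 in WT and 9.97, 9.79 and 9.71 in Lxn-/- arrays. It had the largest difference of the members, 0.17 (SE 0.11, adjusted p = 0.442), with a 95% interval of -0.08 to 0.42. WT array 3 lay above 2 of the 3 Lxn-/- arrays, so the groups overlapped here too.

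Over the 9 members, the Lxn-/- mean was above the WT mean for 5 and below it for 4, with a median difference of 0.030, against -0.038 over all 23410 tested features. None passed an adjusted p of 0.05 in limma, as was the case for 0% of all features, where the smallest adjusted p was 0.34. None had an unadjusted p under 0.05 either, against 14.3% of all features, and the smallest member value was 0.151. The groups overlapped in all 9, whereas they did not overlap in 21.6% of features. Every member's difference was smaller than the range of its 3 WT arrays, which held for 70.6% of features. The 95% interval stayed within 1.5-fold either way for 8 of the 9, against 89.9% of features, with H2-Ob the exception. The median difference was -0.072 without WT array 1 and 0.137 with Lxn-/- arrays 1 and 3 both left out, which leaves 1 Lxn-/- array assumed to vary like the others. The sign of 8 of the 9 differences turned under at least 1 alternative setting. Cd74, H2-Aa, H2-Ab1 and H2-Oa were below 0 after quantile normalization, H2-Eb1, H2-DMa and Ciita above 0 when arrays were centred on their medians, and H2-Ob above 0 without Lxn-/- array 1. Ctss stayed between 0.09 and 0.26 in the alternatives run.

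**Figure D2:**
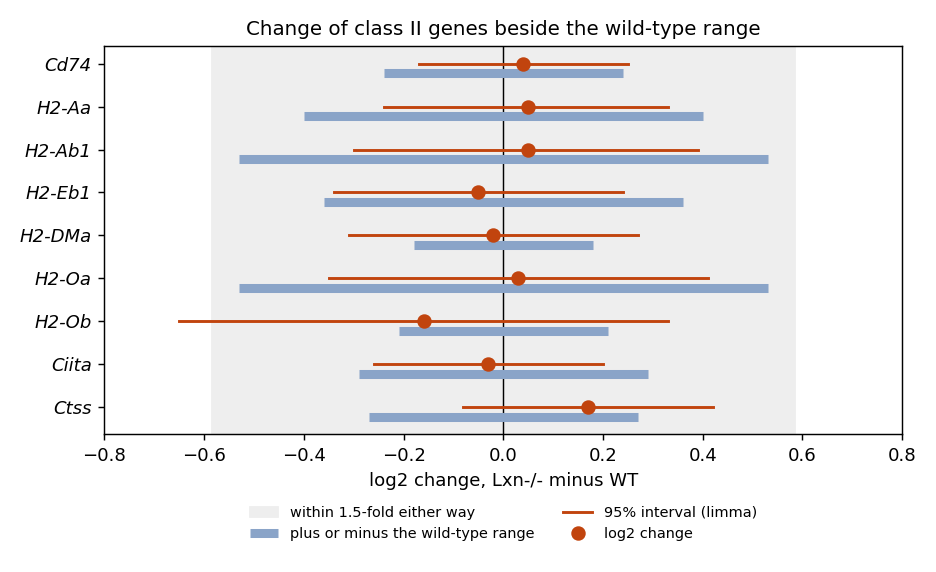
Log2 change of each class II gene (dot, Lxn-/- minus WT) with its 95% interval from limma (line); the blue bar spans plus or minus the range of the 3 WT arrays and the shaded area marks 1.5-fold either way. Every dot lies within the span of its blue bar, and the interval of H2-Ob, -0.65 to 0.33, alone leaves the shaded area.

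The classical chains and Cd74 shared their lowest WT pool but not all of their pattern. Centred on each gene's own mean, WT array 1 was at -0.28 for H2-Aa, -0.27 for H2-Ab1, -0.20 for H2-Eb1 and -0.14 for Cd74. It was the lowest WT array for all 4 genes, as it was for 35% of all features. Lxn-/- array 3 was at -0.12, -0.19 and -0.21 for the 3 chains and close to 0 for Cd74. The mean of the 4 genes was -0.22, 0.08 and 0.11 in WT arrays 1, 2 and 3 and 0.09, 0.08 and -0.13 in Lxn-/- arrays, a range of 0.33 that holds 1 low pool in each genotype. H2-Aa lay closest to this joint profile, with a root mean square difference of 0.036, followed by H2-Eb1 at 0.058, Cd74 at 0.089 and H2-Ab1 at 0.110. These 4 genes make up the profile, so their closeness is in part built in, and 1120 other genes lay nearer to it than H2-Ab1 and 353 nearer than Cd74. H2-Ab1 was at -0.07 in WT array 2, where H2-Aa, H2-Eb1 and Cd74 were at 0.13, 0.16 and 0.11. Outside it, Ctss was at 0.123, Ciita at 0.142, H2-Oa at 0.192, H2-DMa at 0.227 and H2-Ob at 0.351. Among 17662 other genes with a range of at least 0.5 times that of the profile, Prss30 (0.025), Dexi (0.035), Pros1 (0.037), Zfand2b (0.040) and Mpdu1 (0.043) were nearest over the 6 arrays. Prss30, a serine protease gene, was 6.50, 6.79 and 6.80 in WT and 6.80, 6.72 and 6.55 in Lxn-/- arrays. As many as 710 of those genes lay within 0.1, so a pattern this shallow is shared by many genes. In bulk samples like these, fewer cells of a class II-bearing type and less RNA per cell cannot be told apart.

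Of the members, 6 lie in 1 stretch of chromosome 17, where class II and class I processing genes alternate. The stretch runs from H2-Oa to H2-Ea in the GRCm38.p6 gene table and holds 16 named genes, of which 13 have a feature of their own. Lxn-/- array 1 lay below the WT range in 5 of these 13 (H2-DMa, Tap1, Tap2, H2-Ob and H2-Ea), against 32.2% of all features. That count is near the share at large, so it marks nothing particular to this stretch. The deviation from the WT mean was -0.29 for H2-DMa, -0.32 for Tap1, -0.52 for Tap2 and -0.74 for H2-Ob. Tap1 and Tap2 encode the transporter that feeds peptides to class I molecules. Genes between and beside them were not all low. Psmb8, an immunoproteasome subunit gene between Tap1 and Tap2, was 0.27 above the WT mean in the same array, and H2-Ab1, next after H2-Ob, was 0.07 above it. Of the 5 genes low in Lxn-/- array 1, H2-DMa, Tap1, Tap2 and H2-Ob were at 0.18, 0.18, 0.14 and 0.23 in Lxn-/- array 2, and H2-Ea was low there too, at -0.30. Psmb8 was at 0.27 in both arrays. These genes were singled out after their values were seen. H2-Ea was 6.05, 6.09 and 5.92 in WT and 5.76, 5.72 and 5.77 in Lxn-/- arrays. The groups did not overlap, as in 13% of features on the lower side. The difference of -0.27 (SE 0.09) did not pass (adjusted p = 0.34, limma). Its unadjusted p was 0.0128, where 9.23% of features had an unadjusted p under 0.05 on the lower side. After quantile normalization the difference was -0.14. All H2-Ea values lie below the array medians of 7.73 to 7.84, and whether H2-Ea was above background was not tested. H2-Eb2, a further beta chain gene, differed by -0.06 (SE 0.10, adjusted p = 0.758).

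**Figure D3:**
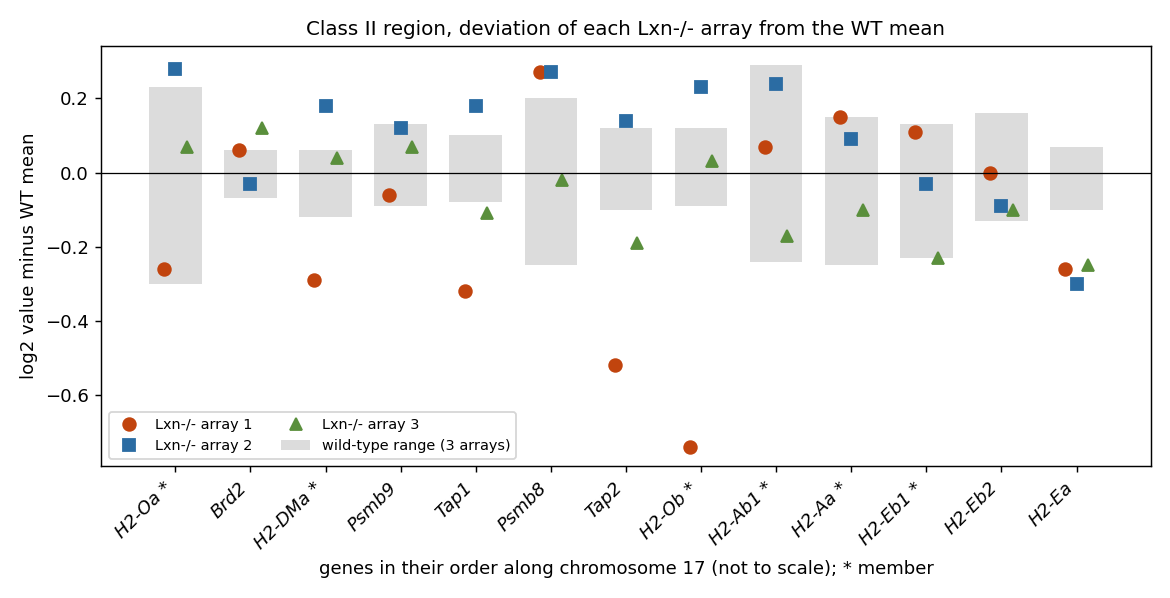
Log2 value minus the WT mean for each array labelled Lxn-/- at 13 genes in their order along chromosome 17, with the range of the 3 WT arrays as grey bars; asterisks mark the class II genes described here and spacing is not to scale. Lxn-/- array 1 falls to -0.74 at H2-Ob and -0.52 at Tap2 but not at Psmb8, H2-Ab1, H2-Aa or H2-Eb1.

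Other genes of the pathway were taken from lists by role, of which 39 of 42 genes had a feature of their own. None passed the adjusted threshold. Means were higher for 22 and lower for 17, at a median of 0.023. An unadjusted p under 0.05 was found for 6, against 14.3% of all features, and the groups did not overlap in 11, against 21.6%. With both directions pooled, neither count stands far from that of the features at large, but the directions were uneven. On the higher side, the groups did not overlap in 10 of the 39, against 8.54% of features. On the lower side they did not overlap in 1, against 13%. An unadjusted p under 0.05 (limma) was found for 5 on the higher side, against 5.06%, and for 1 on the lower side, against 9.23%. This split by direction was not tested, and the lists were chosen with earlier results of these data known.

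Genes of endosomal proteolysis had higher means in the arrays labelled Lxn-/- without a call. All 9 were higher, against 42.2% of all features, at a median of 0.113. The differences ran from 0.02 to 0.61, and the groups overlapped for 5 of the 9. Lgmn, the asparaginyl endopeptidase legumain, was 7.98, 8.09 and 8.12 in WT and 8.74, 8.54 and 8.74 in Lxn-/- arrays. Every Lxn-/- array was above every WT array, and the difference was 0.61 (SE 0.10, adjusted p = 0.34). Without Lxn-/- array 2, which leaves the 2 Lxn-/- arrays with Y-linked signal and passes 145 features, it was 0.68 with an adjusted p of 0.0182. Without those 2 arrays it was 0.48 with an adjusted p of 0.324. Ifi30, which encodes the thiol reductase that opens disulfide bonds of antigens, was 9.34, 9.47 and 9.13 in WT and 10.22, 9.49 and 9.79 in Lxn-/- arrays. The gap between the groups was narrow because Lxn-/- array 2 lay just above the highest WT value. Its difference was 0.53 (SE 0.18, adjusted p = 0.34), but 0.33 without Lxn-/- array 1 and 0.18 without Lxn-/- arrays 1 and 3. Ctsh, cathepsin H, was 8.18, 8.05 and 8.11 in WT and 8.34, 8.48 and 8.72 in Lxn-/- arrays, a difference of 0.40 (SE 0.11, adjusted p = 0.34). In all, 4 of the 9 had groups that did not overlap on the higher side, against 8.54% of features, and 3 had an unadjusted p under 0.05 on that side, against 5.06%. This list too was chosen with earlier results of these data known, so the counts are a description. Ctss, which belongs to the same step, was at 0.17. Its difference was not tested against theirs. The direction of calls over all features depends on the scaling, with 35.4% of the features at an unadjusted p under 0.05 higher as deposited and 70.0% after each array was centred on its median. The proteolysis median was 0.170 with that centring and 0.025 after quantile normalization.

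Factors listed for transcription in the class II pathway gave differences of both signs. Subunits of the X box complex, which seat Ciita on the promoter, differed little: Rfx5 by 0.07 (SE 0.15), Rfxap by -0.06 (SE 0.11) and Rfxank by -0.09 (SE 0.11), with signs that turn under other settings. Irf8, a transcription factor of monocyte and dendritic cell fate, was 11.26, 10.97 and 10.88 in WT and 11.50, 11.45 and 11.42 in Lxn-/- arrays. All Lxn-/- values were higher, by 0.42 on average (SE 0.11), without passing (adjusted p = 0.34). Irf4, a related factor of B cells and dendritic cells, differed by -0.34 (SE 0.16, adjusted p = 0.357), and Nfyb, a subunit of the Y box factor, by 0.22 (SE 0.12, adjusted p = 0.403). Irf4 was -0.17 without WT array 2, and Nfyb was 0.08 without Lxn-/- array 3. In the 14 measured factors, 9 means were higher and 5 lower. The groups did not overlap for 4 on the higher side, against 8.54% of features, and for 0 on the lower side, against 13%.

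The interferon-gamma input, which induces Ciita in many cells, had 2 higher and 4 lower means among 6 measured genes. The largest statistics were those of the receptor gene Ifngr2 (0.18, SE 0.10), the kinase gene Jak1 (-0.12, SE 0.10) and the feedback inhibitor gene Socs1 (-0.09, SE 0.09). Of 8 genes for class II turnover at the surface and for costimulation, 2 were higher and 6 lower. They include Icosl, a costimulatory ligand gene (0.22, SE 0.09), Cd83, which protects surface class II from degradation (-0.26, SE 0.15), and Cd40 (-0.17, SE 0.10). None of these 6 genes passed (adjusted p of 0.346 to 0.616). With 1 array left out, Ifngr2 ranged from 0.08 to 0.24, Jak1 from -0.19 to -0.06, Socs1 from -0.16 to -0.05 and Cd83 from -0.39 to -0.11.

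**Figure D4:**
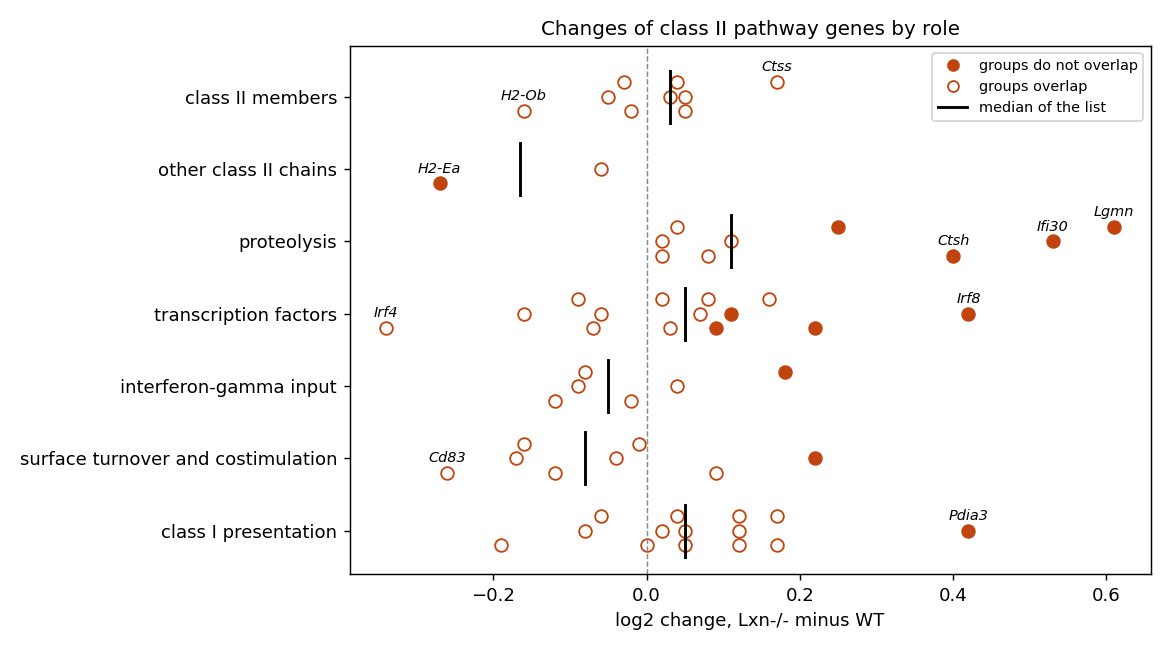
Log2 change (Lxn-/- minus WT) of every measured gene of the class II pathway lists and of class I presentation, by role; filled dots mark groups that do not overlap and vertical bars the list medians. The class II genes lie between -0.16 and 0.17, and Lgmn (0.61), Ifi30 (0.53), Irf8 (0.42) and Pdia3 (0.42) lie farthest to the right.

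The genes of MHC class I presentation, the pathway most like this one, differed by -0.19 to 0.42, against -0.16 to 0.17 for the class II genes. Of 14 measured genes, 10 means were higher and 4 lower, at a median of 0.047, and none passed the adjusted threshold. The light chain gene B2m differed by 0.05 (SE 0.11), the transporter gene Tap1 by -0.08 (SE 0.13) and the class I regulator gene Nlrc5 by -0.00 (SE 0.11). The largest statistics were those of the endoplasmic reticulum genes Pdia3 (0.42, SE 0.17), Calr (0.17, SE 0.10) and Erap1 (0.12, SE 0.09), with adjusted p of 0.34, 0.421 and 0.504. Pdia3 was 0.23 without WT array 2, and without Lxn-/- arrays 1 and 3 Pdia3 was 0.24 and Calr 0.00. The difference between the class I and class II genes was not tested. H2-K1, H2-D1 and H2-T23, and H2-DMb1 and H2-DMb2 of the class II list, share features with other genes, so none of them is given a value.

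Class II genes mark several mature cells, so the markers of those cells were read in the same arrays. The mean log2 level of 13 dendritic cell markers was 7.58 to 7.74 in WT and 7.56 to 7.62 in Lxn-/- arrays. Of these, 3 means were higher and 10 lower, with Itgax at 0.26 (SE 0.11), Zbtb46 at -0.34 (SE 0.14), Ccr9 at -0.39 (SE 0.19) and Cd300c at -0.38 (SE 0.14). Differences in this list ran from -0.39 to 0.39. At an unadjusted p under 0.05 (limma), 2 of the 13 were higher and 2 lower, against 5.06% and 9.23% of all features. The mean level of 11 B cell markers was 7.33 to 7.65 in WT and 7.27 to 7.33 in Lxn-/- arrays, with Cd79a at -0.15 (SE 0.24) and Pou2af1 at -0.37 (SE 0.16). Cd79a was 7.31 in WT array 2 and 6.25 to 6.82 in the other 5. That array held the highest B cell mean, 7.65, and a centred classical class II mean of 0.08. In WT array 3 the B cell mean was 7.37 and the class II mean 0.11. The mean of 13 macrophage and monocyte markers was 8.45 to 8.63 in WT and 8.33 to 8.58 in Lxn-/- arrays, and its members split, with 4 means higher and 9 lower at a median of -0.225. Of these 13, 3 were higher and 5 lower at an unadjusted p under 0.05, against 5.06% and 9.23% of all features. Csf1r, the receptor of the macrophage growth factor, was 9.65, 9.22 and 9.21 in WT and 9.70, 9.96 and 9.92 in Lxn-/- arrays, and Ly86 differed by 0.73 (SE 0.20). Adgre1, C1qa and Vcam1, which mark resident macrophages, differed by -0.23 (SE 0.15), -0.27 (SE 0.11) and -0.52 (SE 0.18). The mean of 8 T and NK cell markers was 6.82 to 6.94 in WT and 6.76 to 7.03 in Lxn-/- arrays, with Cd3e at 0.04 (SE 0.15), Gzma at -0.06 (SE 0.16) and Cd8a at -0.02 (SE 0.16). No marker passed the adjusted threshold. Csf1r, Ly86 and Irf8, like Lgmn, Ifi30 and Ctsh, were higher in every Lxn-/- array than in every WT array, whereas 9 of the 13 macrophage and monocyte means were lower. Among the WT arrays, array 1 was highest for Csf1r (9.65), Ly86 (10.86), Irf8 (11.26) and Ctsh (8.18). The same array was lowest for Lgmn (7.98) and in between for Ifi30 (9.34). The part of Csf1r, Ly86 and Irf8 in the values of Lgmn, Ifi30 and Ctsh was not tested. Array values have no true zero, so absence of a cell type cannot be read from them.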

How the data were processed

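From each pool, 100 ng of total RNA was biotin-labelled for an Affymetrix gene array, per the labels' protocols. The authors deposited log2 expression values of 35557 features after RMA, per the series text, with Partek 6.0 also listed among the tools of the submitters' processing notes. The log2 scale was read from the values (2.93 to 14.78 over tested features). The RMA settings and the scan dates were not known here. Array medians over tested features were 7.73 to 7.84, so the tested values do not share 1 distribution.

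Features were named through the platform's table, with symbols updated in the GRCm38.p6 gene table (21698 of 21789 single-symbol features matched). The 23410 features with a symbol were fitted by genotype in R 4.3.3 with the lmFit and eBayes functions of limma 3.58.1, two-sided. P-values were adjusted over all these features by Benjamini and Hochberg's method, with a threshold of 0.05. The fit was tested on simulated data. The brightest feature stands for a gene. The 3 pools per group are called biological replicates in the labels, and 6 arrays limit the precision. Named were all members, preset pathway and marker genes, per pathway list the 3 genes with the largest moderated statistic, per marker list the 2 with the widest range, and the 5 genes nearest the class II profile among those with at least 0.5 of its range (predicted, cloned and Y-linked genes left out). The region's genes were added after values were seen. The members and lists were chosen with earlier results of these data known. The alternatives were a replicate block, each array left out, Lxn-/- arrays 1 and 3 left out together, quantile normalization, median centring, bright features only, trend and robust eBayes, array weights, all rows and the mean of a gene's features. Figures were drawn with matplotlib 3.10.9.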

Additional observations from a re-analysis of the deposited data

How the results depend on the processing

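No class II gene passed an adjusted p of 0.05 under any alternative run, with a smallest adjusted p of 0.395 and no difference above 0.36 in size over 134 values. The sign of a class II gene turned in 28 of those values, H2-Ob from -0.16 included, and the cause was not tested. Quantile normalization gave Cd74 -0.04, H2-Aa -0.03, H2-Ab1 -0.04, H2-Oa -0.04, Ciita 0.08, H2-Eb2 0.07 and Rfx5 -0.01. Median centring gave H2-Eb1 0.01, H2-DMa 0.04, Ciita 0.03 and Nlrc5 0.05. Array weights gave H2-DMa 0.04, H2-Ob 0.02, Rfxap 0.00 and Nlrc5 0.06. With Lxn-/- arrays 1 and 3 both left out, H2-DMa was 0.18, H2-Ob 0.23, Ciita 0.02, Rfxank 0.01, Jak1 0.01, Tap1 0.18, Tap2 0.14 and Nlrc5 0.10.
Leaving out 1 array at a time gave ranges of -0.01 to 0.11 for Cd74, -0.08 to 0.12 for H2-Aa, -0.07 to 0.19 for H2-Ab1, -0.16 to 0.04 for H2-Eb1, -0.12 to 0.11 for H2-DMa, -0.12 to 0.17 for H2-Oa, -0.36 to 0.13 for H2-Ob and -0.10 to 0.04 for Ciita. The ranges were -0.13 to 0.02 for H2-Eb2, -0.05 to 0.26 for Rfx5, -0.11 to 0.04 for Rfxap, -0.07 to 0.11 for B2m, -0.22 to 0.04 for Tap1, -0.06 to 0.10 for Nlrc5 and 0.57 to 0.68 for Lgmn. The median of the 9 class II genes ranged from -0.072 to 0.043, and was 0.137 without Lxn-/- arrays 1 and 3.

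Of the other pathway genes, 0 to 1 passed the adjusted threshold with 1 array left out (Lgmn without Lxn-/- array 2) and 5 to 11 had an unadjusted p under 0.05, against 3 after quantile normalization. Their median was -0.015 to 0.064 with 1 array left out, 0.068 in bright features, 0.079 with centring, -0.040 with quantile normalization and 0.064 without Lxn-/- arrays 1 and 3. The proteolysis median was 0.050 to 0.196 with 1 array left out, 0.170 with centring and 0.025 with quantile normalization. For class I genes, the unadjusted count of 1 was 0 with all rows, array weights, quantile normalization or without Lxn-/- arrays 1 and 3, and 0 to 3 with 1 array left out.

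Over all features, 0 to 145 passed the adjusted threshold with 1 array left out, the 145 without Lxn-/- array 2, and 3 without Lxn-/- arrays 1 and 3. The unadjusted count of 3346 was 5614 with array weights, 1356 in bright features, 1812 with quantile normalization and 1628 to 5541 with 1 array left out. The replicate block gave 1 adjusted call in place of 0 over all features and an unadjusted count of 3319. It took Irf4 from an unadjusted p of 0.0587 to 0.0191 and Icosl from 0.0471 to 0.0807 (limma), and the counts for the class II, other pathway and class I genes did not move. Arrays with the same number correlated at 0.08, -0.01 and -0.01 in their deviations, and arrays of different number at -0.05 to 0.05. These values show no clear pairing, but with 3 arrays a group they cannot exclude a weak one. With 3 pools a group, the intervals of single genes are as wide as given, and no detection call was used.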
